A study of Mus musculus with 9 samples.

Results

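The 9 genes described here encode signal carriers, kinases and inhibitors of the cytokine pathway named after the Janus kinases (JAK) and the signal transducers and activators of transcription (STAT). They are Stat2, Stat3, Stat4, Stat6, Jak2, Jak3 and the suppressors of cytokine signalling Socs1, Socs2 and Socs3. They were taken by name from a table of read counts with 27179 gene identifiers. All 9 were found, and all 9 were among the 16749 genes with enough counts to be tested. RNA was sequenced from the spinal cord of 9 mice of the strain C57BL/6, with 1 library per mouse and 3 mice in each of 3 groups. The Control group has no further label. Mice of the EAE group carried experimental autoimmune encephalomyelitis, an inflammatory disease of brain and spinal cord that is induced by immunity against myelin and serves as a model of multiple sclerosis. The EAE+EHP-101 group, called treated below, had the same disease and received EHP-101, a compound under a code name, by mouth at 20 mg/kg. Sex, age, the way the disease was induced, the day of sampling and whether the other groups received a vehicle were not stated in the labels.

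Cytokine receptors carry Janus kinases on their inner side. When a cytokine joins 2 receptor chains, the kinases phosphorylate each other, the receptor and a STAT protein, which pairs up, enters the nucleus and switches genes on. SOCS genes are among the genes that STAT proteins switch on, and the SOCS proteins then block the receptors and kinases, so their transcripts are widely read as a trace of recent cytokine signalling. Each STAT is known for certain cytokines: STAT2 for type I interferon, STAT3 for the interleukin 6 family, STAT4 for interleukin 12 and STAT6 for interleukins 4 and 13. In EAE these routes are known from T cells and macrophages that enter the cord and from resident microglia and astrocytes. Transcript counts give the level of the messenger RNA and say nothing of phosphorylation, which carries the signal itself.

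The promoters were searched first, since the pathway acts through short DNA elements and 7 of the 9 transcripts were higher in EAE. Of all tested genes, 20.2% were higher by the same test, which is described below. The result of Socs2 among the 7 was weak. Promoters were those of RefSeq (build GRCm38.p6), from 250 bases before to 50 bases after a start site, and 8 of the 9 genes matched, with 9 promoters, since Stat4 has 2. Socs2 was not matched. Both strands of the 250 bases before the start were searched for the gamma-activated site bound by most STAT dimers (TTCNNNGAA), for the same palindrome with 1 more base between its arms, the form preferred by STAT6 (TTCNNNNGAA), and for the core of the interferon-stimulated response element bound by complexes that hold STAT2 and IRF9 (GAAANNGAAA). These 3 patterns cannot share a match of the same letters, though matches may overlap. Of 32851 promoters in the table, 7.02% held the first, 5.85% the second and 2.98% the third. Counted by gene, over 27025 genes, the shares were 8.13%, 6.76% and 3.46%. Among the 8 genes, Socs3 held the first, Stat2 the second, and Stat2, Stat4 and Socs1 the third, which Socs1 held in 2 overlapping copies. The stretches around these matches are shown because they are the places where the pathway's own elements stand beside its own genes. They run 5′ to 3′ on the strand of the gene, with the matches in capitals.
Stat2, chr10:128270248-128270342, plus strand: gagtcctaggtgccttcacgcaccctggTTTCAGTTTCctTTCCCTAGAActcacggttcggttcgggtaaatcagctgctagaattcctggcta
Stat4, the start nearer the gene's own coordinates, chr1:52008098-52008197, plus strand: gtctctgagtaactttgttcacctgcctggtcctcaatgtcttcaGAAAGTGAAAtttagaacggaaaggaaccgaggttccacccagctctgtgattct
Socs1, chr16:10785559-10785664, minus strand: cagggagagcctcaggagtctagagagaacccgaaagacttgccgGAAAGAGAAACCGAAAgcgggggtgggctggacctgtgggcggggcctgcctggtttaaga
Socs3, chr11:117969467-117969565, minus strand: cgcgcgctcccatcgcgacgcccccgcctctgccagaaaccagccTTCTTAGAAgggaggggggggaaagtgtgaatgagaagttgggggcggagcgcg
In Stat2 the interferon element is read on the opposite strand and the 2 matches lie 222 to 201 bases before the start. The Stat4 match lies 97 to 88 bases before its start, the Socs1 copies 83 to 68 and the Socs3 site 154 to 146. No match of these letters was found in this window of Stat3, Stat6, Jak2 or Jak3, and none was added when the 50 bases after the start were included. These are matches of letters, and no binding was measured.

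Libraries held between 30448507 and 32661741 counts, so each gene was counted at nearly the same depth. On the first principal component of all tested genes the Controls lay between -47.2 and -40.9 and the EAE libraries between 36.0 and 50.1. Treated replicates 2 and 3 lay at 8.36 and 15.2, and treated replicate 1 lay on the Control side at -22.2. Control replicate 3 differed most from its own group (chi-square per degree of freedom 24.4 and 26.7, against 8.20 between Control replicates 1 and 2), and Control replicate 1 held skeletal muscle transcripts at a summed 43.3 CPM (the usual scaling of counts to library size), against 2.23 to 3.20 CPM in the other libraries. In Controls, long genes were relatively higher (correlation of deviation with log2 gene length 0.182 to 0.288 across genes), and in EAE they were relatively lower (-0.214 to -0.142). In treated replicates 1, 2 and 3 that correlation was 0.0144, -0.234 and -0.138.

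Levels can be compared between genes only per length, here as RPKM (CPM divided by the kilobases of exon), mean ± SD over 3 mice. In Control cord Stat3 stood highest at 24.7 ± 1.25 RPKM. Jak2 followed at 12.98 ± 0.537 and Stat2 at 6.89 ± 1.01 RPKM. These 3 transcripts did not overlap in any library of the Controls, nor did they in EAE or in treated mice. Below them stood Stat6 at 2.5 ± 0.326, Jak3 at 1.72 ± 0.614 and Socs2 at 1.23 ± 0.0911 RPKM, where each overlapped the next in some Control library. Socs3 at 0.507 ± 0.0686 and Socs1 at 0.434 ± 0.135 RPKM overlapped as well, and Stat4 was far lowest at 0.0291 ± 0.0130 RPKM.

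In EAE the order differed at 1 place. Socs3, at 2.098 ± 0.219 RPKM, stood above Socs2, at 1.62 ± 0.143 RPKM, without overlap between their libraries. No neighbours in the order overlapped in EAE, where Stat3 reached 31.3 ± 1.42, Stat6 5.66 ± 0.494, Jak3 3.05 ± 0.230, Socs1 1.118 ± 0.266 and Stat4 0.296 ± 0.0246 RPKM. In treated mice Socs2 at 1.32 ± 0.196 stood again above Socs3 at 0.842 ± 0.320 RPKM, and the libraries of these neighbours overlapped, as did those of Stat6 and Jak3 and those of Socs3 and Socs1.

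**Figure D1:**
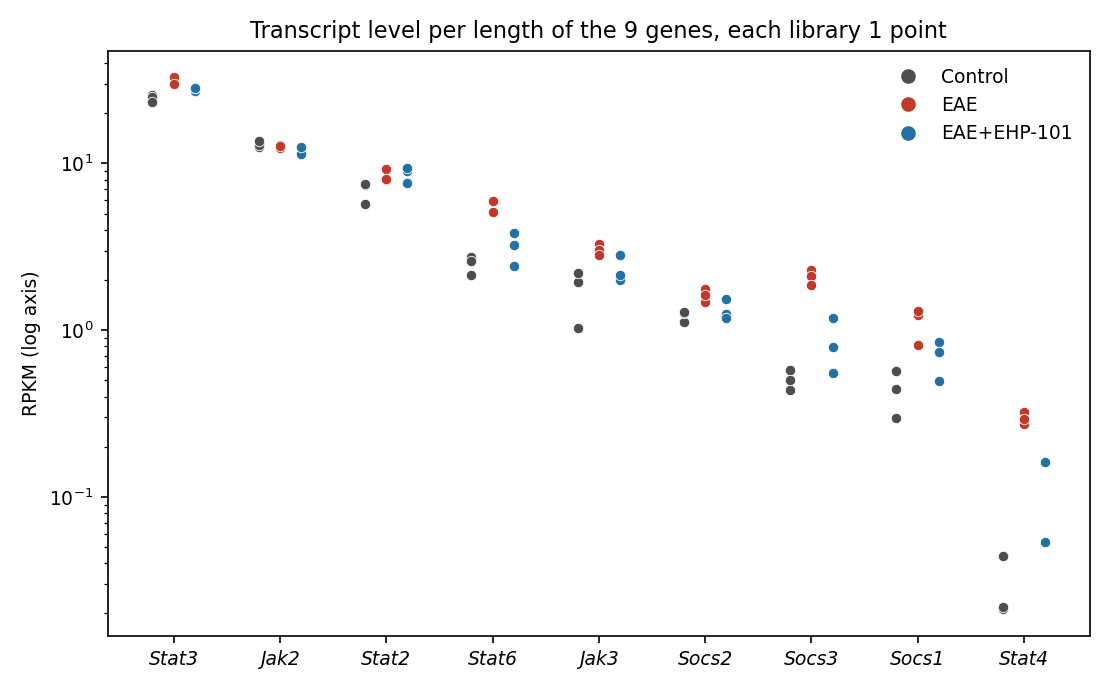
Transcript level per length (RPKM, log axis) of the 9 genes, ordered by their Control mean, with each point 1 library of Control, EAE or EAE+EHP-101 mice (3 per group). Stat3 is the most abundant transcript in every library and Stat4 the least, and Socs3 passes Socs2 in the EAE libraries (2.098 against 1.62 RPKM on average).

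EAE was compared with Control to find which of these transcripts differ in the diseased cord. All values by library below are CPM, with libraries scaled to each other, given in the order of replicates 1, 2 and 3. Stat4, Socs3, Socs1, Stat6, Jak3, Socs2 and Stat3 were higher in EAE. No member was lower by edgeR, by an unadjusted p under 0.05 or by DESeq2. A gene was called where its adjusted p (Benjamini-Hochberg over 16749 genes, quasi-likelihood test of edgeR) was under 0.05. So 7 of 9 were called higher, where 20.2% of all tested genes were called higher, 16.7% were called lower and 37% were called in either direction. The median log2 fold change was 0.82 over the 9 genes and 0.01 over all genes. Libraries of the 2 groups did not overlap for 8 of the 9, against 46.6% of all genes.

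Of the STAT genes, Stat4, which mediates the response of T cells and natural killer cells to interleukin 12, had the largest fold difference. It was counted 4, 2 and 2 times in the Control libraries and 27, 30 and 28 times in those of EAE, which is 0.131, 0.0633 and 0.0655 CPM against 0.815, 0.961 and 0.873 CPM. Every EAE library held more than every Control library. Stat4 (gene 20849, chromosome 1 from 52008244 to 52107184, plus strand, mm10 as in the table) was 9.80-fold higher (log2 3.29, SE 0.455, adjusted p = 0.000333). The ratio of summed counts, 85 to 8 and adjusted for library size, was 10.2, and its exact 95% interval (4.95 to 24.4) covers counting error only. In a bulk sample like this, more cells that carry a transcript and more transcript per cell cannot be told apart.

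Stat6, the carrier of interleukin 4 and 13 signals in lymphocytes and macrophages, stood at 10.5, 9.90 and 8.13 CPM in Control and at 22.7, 22.5 and 19.4 CPM in EAE. The groups were far apart relative to their spread. Stat6 (gene 20852, chromosome 10 from 127642986 to 127660987, plus strand) was 2.26-fold higher (log2 1.18, SE 0.153, adjusted p = 0.000236). It shares 70 exon bases with Nab2, a repressor of early growth response factors on the opposite strand, and no source used here gives the strand setting of the counting. Nab2 held 324 to 338 counts in Control, above those of Stat6 (248 to 320), and 460 to 506 in EAE, below those of Stat6 (621 to 752). In treated mice the counts of the 2 genes overlapped (352 to 399 for Nab2 and 290 to 457 for Stat6). Nab2 was itself higher in EAE by 0.48 on the log2 scale (SE 0.0812, adjusted p = 0.00106).

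Stat3, which answers interleukin 6, leukaemia inhibitory factor and their relatives and is known for its role in reactive astrocytes, was already abundant in Control, at 115, 113 and 104 CPM. In EAE it stood at 139, 148 and 135 CPM. The difference was small and the groups did not overlap. Stat3 (gene 20848, chromosome 11 from 100886810 to 100939511, minus strand) was 1.27-fold higher (log2 0.34, SE 0.0592, adjusted p = 0.00119).

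Stat2, the partner of IRF9 in type I interferon signalling, held 32.7, 32.97 and 25.2 CPM in Control and 41.0, 34.95 and 35.6 CPM in EAE. All EAE libraries lay above all Control libraries, and Control replicate 3 lay apart from the other 2 Controls. Stat2 (gene 20847, chromosome 10 from 128270576 to 128292849, plus strand) did not pass the test (log2 0.30, SE 0.115, adjusted p = 0.0638). The 95% interval of its log2 difference ran from 0.04 to 0.55. With the trend over gene length removed from each library it passed, at log2 0.40 and an adjusted p of 0.026, and without Control replicate 3 the estimate was 0.15 (adjusted p = 0.251).

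Jak3, which attaches to the common gamma chain of the receptors for interleukins 2, 4, 7, 15 and 21 and is known mainly from blood cells, held 7.95, 8.95 and 4.19 CPM in Control and 13.5, 12.3 and 11.6 CPM in EAE. The EAE libraries lay close together, whereas Control replicate 3 lay far below the other 2 Controls. Jak3 (gene 16453, chromosome 8 from 71676383 to 71690577, plus strand) was 1.77-fold higher (log2 0.82, SE 0.224, adjusted p = 0.0141). Without EAE replicate 1 it did not pass (adjusted p = 0.0513), and without Control replicate 3 it passed at a smaller log2 of 0.53. The gene shares 406 exon bases with Insl3, an insulin-like hormone gene on the same strand that held only 1 to 8 counts in any library.

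Jak2, the kinase of receptors for interferon gamma, interleukin 12, growth hormone and colony-stimulating factors, held 63.0, 64.5 and 68.3 CPM in Control and 65.2, 62.4 and 64.2 CPM in EAE. The libraries of the 2 groups overlapped. Its log2 difference was -0.03 (SE 0.0583, adjusted p = 0.714) and the 95% interval ran from -0.16 to 0.10, so a difference of the size seen for Jak3 lay outside it. With the length trend removed the estimate was 0.10 (adjusted p = 0.217). Jak2 (gene 16452) lies on chromosome 19 from 29251828 to 29313080, plus strand.

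Of the inhibitors, Socs3, which binds the interleukin 6 receptor chain gp130 and the kinase beside it, held 1.58, 1.202 and 1.38 CPM in Control (48, 38 and 42 counts). In EAE it held 6.31, 5.77 and 5.12 CPM (209, 180 and 164 counts). The lowest EAE library held more than 3 times the highest Control library. Socs3 (gene 12702, chromosome 11 from 117966079 to 117969366, minus strand) was 4.13-fold higher (log2 2.05, SE 0.242, adjusted p = 0.000142). An unnamed gene on the opposite strand shares 740 of its exon bases and held 0 counts in every library.

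Socs1, the main inhibitor of interferon signalling in this family, held 0.690, 0.538 and 0.3604 CPM in Control and 1.51, 0.993 and 1.59 CPM in EAE. These values rest on 11 to 21 counts per Control library and 31 to 51 per EAE library. The groups did not overlap, and EAE replicate 2 lay well below the other 2 EAE libraries. Socs1 (gene 12703, chromosome 16 from 10783808 to 10785536, minus strand) was 2.57-fold higher (log2 1.36, SE 0.307, adjusted p = 0.00525).

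Socs2, best known as the brake on growth hormone signalling, held 3.02, 3.42 and 3.47 CPM in Control and 4.74, 3.97 and 4.40 CPM in EAE. The groups did not overlap and the difference was small. Socs2 (gene 216233, chromosome 10 from 95411490 to 95416857, minus strand) passed narrowly, 1.32-fold higher (log2 0.40, SE 0.146, adjusted p = 0.0489). This call is weak: it was lost under 15 of the 17 alternative settings, where the adjusted p ran from 0.0413 to 0.171 over all 17.

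**Figure D2:**
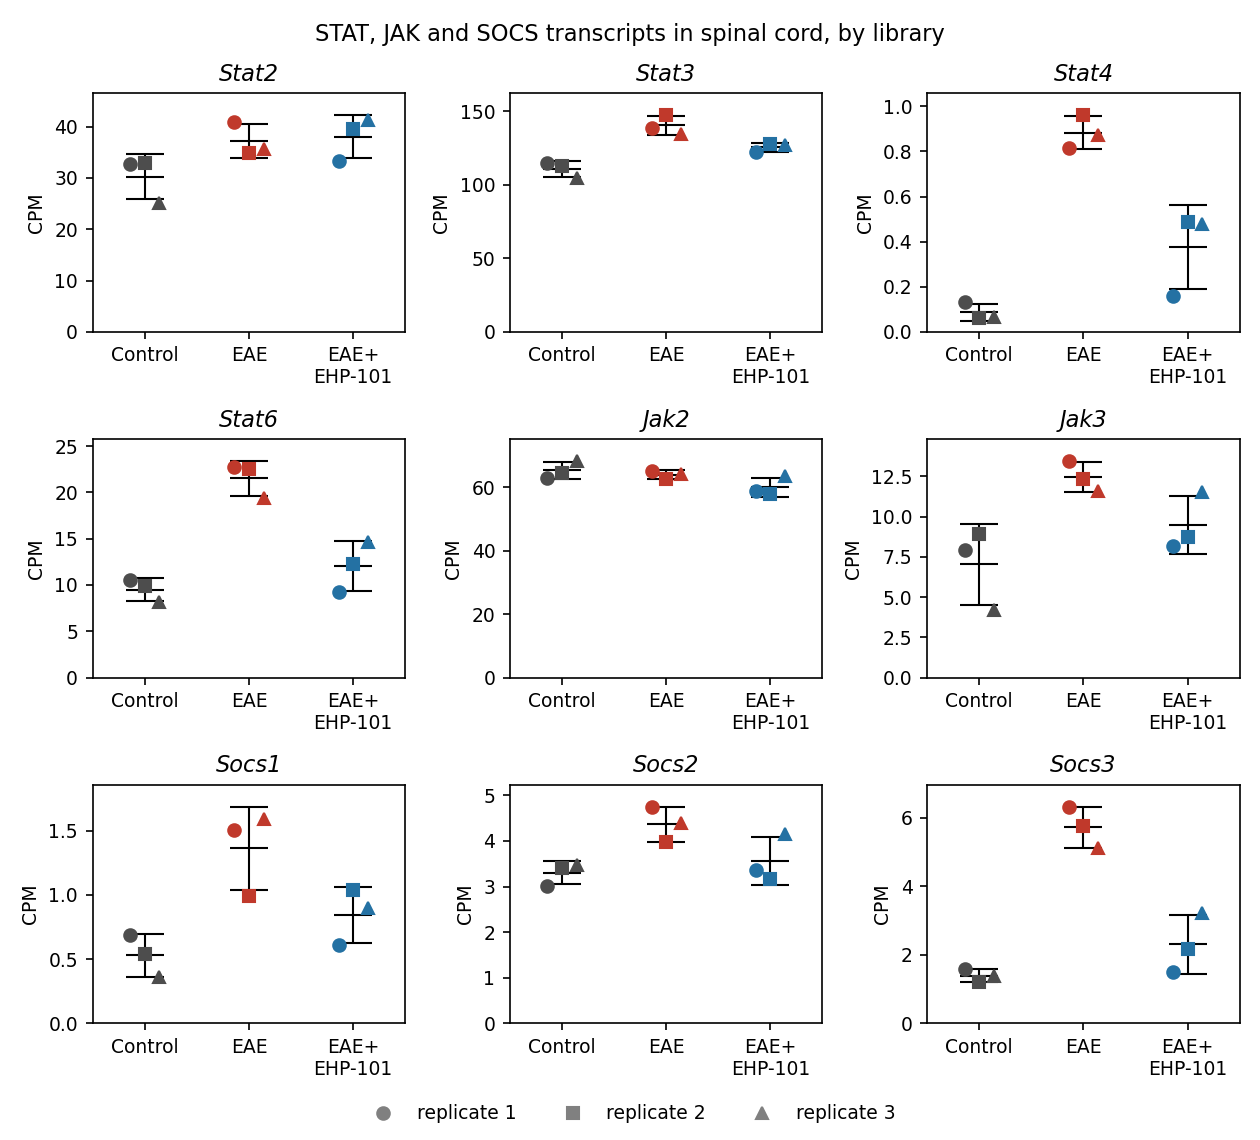
Normalised level (CPM, linear axes from 0) of each of the 9 genes in every library, by group, with symbols for replicates 1, 2 and 3, a line at the group mean and bars of 1 SD (n = 3). EAE libraries lie above all Control libraries for every gene but Jak2, and treated replicate 1 (circle) lies at the bottom of its group for Socs3, Stat4 and Stat6 (1.503, 0.160 and 9.28 CPM).

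Treated mice were compared with EAE mice to ask which of these transcripts differ when EHP-101 is given. Socs3 and Stat6 were lower in treated mice. No member was higher by edgeR, by an unadjusted p under 0.05 or by DESeq2. The 2 called lower of 9 stand beside 4.81% of all tested genes called lower, 0.43% called higher and 5.24% called in either direction. Of the 9, 5 did not overlap between the groups (Stat3, Stat4, Stat6, Jak3 and Socs3), against 27.6% of all genes, and the median log2 difference was -0.39 over the 9 and -0.00107 over all genes. This comparison and the one above share the 3 EAE libraries, so they are not independent of each other.

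Socs3 held 1.503, 2.17 and 3.23 CPM in the treated libraries (47, 67 and 101 counts). All 3 lay below the EAE libraries, which held 5.12 CPM or more, and treated replicate 1 lay within the range of the Controls. Socs3 was 2.49-fold lower than in EAE (log2 -1.32, SE 0.228, adjusted p = 0.00725). Without treated replicate 1 the log2 difference was -1.08 (adjusted p = 0.0109).

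Stat6 held 9.28, 12.3 and 14.6 CPM in the treated libraries, against 19.4 to 22.7 CPM in EAE. Here too treated replicate 1 lay within the Control range and replicates 2 and 3 above it. Stat6 was 1.78-fold lower than in EAE (log2 -0.84, SE 0.151, adjusted p = 0.0085), and without treated replicate 1 the log2 difference was -0.67 (adjusted p = 0.0134).

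Stat4 held 0.160, 0.485 and 0.480 CPM in treated mice (5, 15 and 15 counts), all below the EAE libraries. It did not pass the test (log2 -1.23, SE 0.347, adjusted p = 0.0718), although the 95% interval of the difference ran from -1.99 to -0.46. The ratio of summed counts, 35 to 85, was 0.425 (exact interval 0.278 to 0.637, again of the counting alone).

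The other 6 members did not pass either. Socs1 held 0.608, 1.04 and 0.897 CPM in treated mice, which overlapped EAE replicate 2 (log2 -0.69, SE 0.287, adjusted p = 0.253). Jak3 held 8.19, 8.76 and 11.5 CPM, just below the lowest EAE library in replicate 3 (log2 -0.39, SE 0.2197, adjusted p = 0.430). Stat3 held 122, 128 and 127 CPM, between the other groups without overlap with EAE (log2 -0.16, SE 0.0591, adjusted p = 0.184). Socs2, at 3.36, 3.17 and 4.16 CPM, overlapped EAE (log2 -0.29, SE 0.145, adjusted p = 0.357).

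Stat2 and Jak2 were the members with the smallest estimates. Stat2 held 33.3, 39.6 and 41.3 CPM in treated mice, so replicate 3 stood above all 3 EAE libraries and replicate 2 above 2 of them. Its log2 difference was 0.03 (SE 0.114, adjusted p = 0.919), with an interval of -0.22 to 0.28, and it was -0.03 without treated replicate 3. Jak2 held 58.6, 57.7 and 63.4 CPM (log2 -0.09, SE 0.0584, adjusted p = 0.495), with an interval from -0.22 to 0.03.

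Treated mice were also compared with Controls, to ask which transcripts differed from Control. Stat4 was higher in treated mice, 4.19-fold (log2 2.07, SE 0.521, adjusted p = 0.0207), and it was the only member called, 1 of 9 against 9.96% of all genes called higher, 9.82% called lower and 19.8% called in either direction. The call rests on 35 counts against 8 and was lost without Control replicate 2 (adjusted p = 0.0731), treated replicate 2 (0.0936) or treated replicate 3 (0.0826). Of the 9, 3 did not overlap between these groups (Stat2, Stat3 and Stat4), against 36.5% of all genes.

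The remaining estimates leaned upward, with 8 of 9 above 0 and a median log2 of 0.34 over the 9 against 0.01 over all genes. Socs3 was at log2 0.73 (SE 0.256, adjusted p = 0.0657), Stat2 at 0.33 (SE 0.115, 0.0651), Stat3 at 0.18 (SE 0.0593, 0.0504), Socs1 at 0.67 (SE 0.324, 0.164) and Stat6 at 0.34 (SE 0.156, 0.142), none of which passed (edgeR, adjusted p in each bracket). Jak3, Socs2 and Jak2 stood at 0.43, 0.11 and -0.12 (adjusted p = 0.201, 0.640 and 0.157). The number called here turned on the libraries. Without treated replicate 1, the library nearest the Controls, 4 members were called higher: Stat4 (adjusted p = 0.00333), Socs3 (0.0118), Stat6 (0.0224) and Stat2 (0.0298). Without Control replicate 2, treated replicate 2 or treated replicate 3, it was 0.

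**Figure D3:**
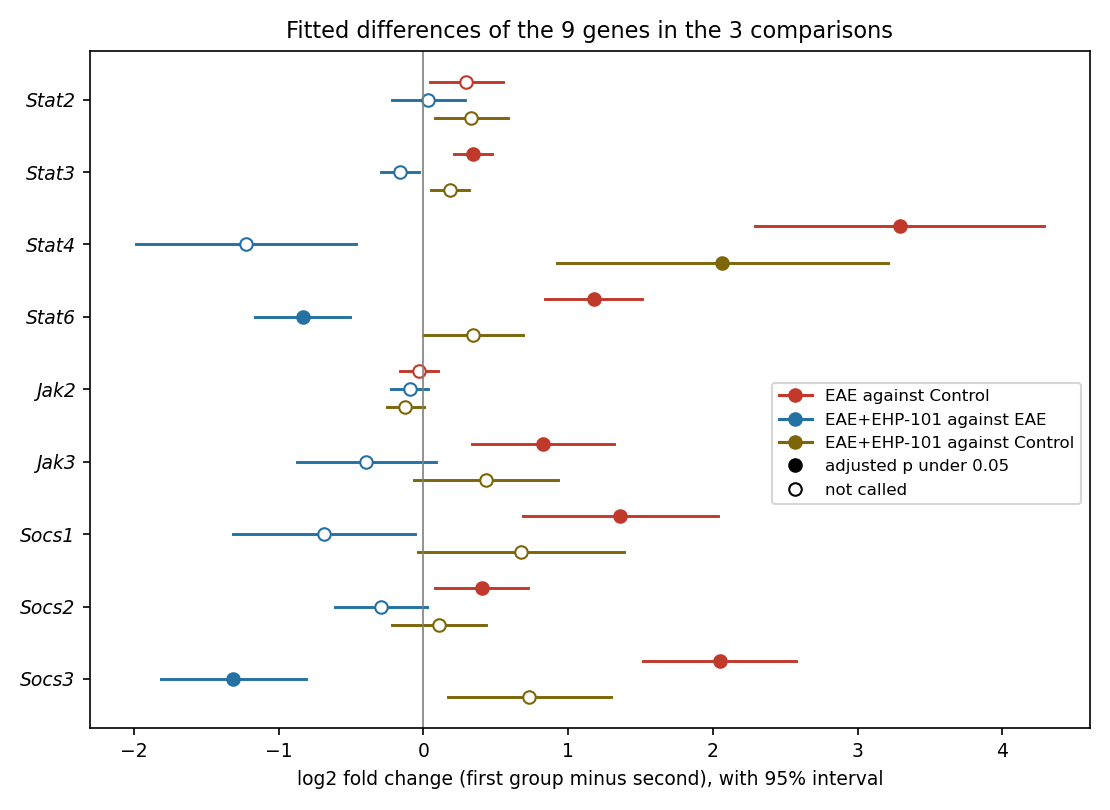
Fitted log2 fold change (first group minus second) of each of the 9 genes in the 3 comparisons, with 95% intervals from the edgeR fit over all 9 libraries; filled points passed an adjusted p of 0.05. Stat4 and Socs3 show the largest differences in EAE (3.29 and 2.05), Socs3 and Stat6 are the filled points to the left of 0, and the 3 points of Jak2 lie near 0.

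Treated mice differed among themselves more than mice of the other groups did for several members. The coefficient of variation of CPM was 38.0% for Socs3 in treated mice, against 13.5% in Control and 10.5% in EAE. For Stat6 it was 22.3%, against 13.03% and 8.72%. The opposite held for Stat3, at 2.47% in treated mice against 5.04% in Control and 4.52% in EAE. Stat2, Jak3 and Socs1 also varied most in Control. Treated replicate 1 was the lowest of its group for 7 of the 9 genes (Stat2, Stat3, Stat4, Stat6, Jak3, Socs1 and Socs3), and treated replicate 3 the highest for 6. In Controls it was replicate 3 that was lowest for 5 of the 9 (Stat2, Stat3, Stat6, Jak3 and Socs1), and Control replicate 3 was the source of the wide Control spread of Jak3 (35.7%).

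The inhibitor Socs3 was also set against Stat3, the factor best known for inducing it, within each library. The ratio of RPKM was 2.25%, 1.75% and 2.16% in Controls and 7.46%, 6.42% and 6.22% in EAE. In treated mice it was 2.02%, 2.79% and 4.17%. So Socs3 was higher in EAE by far more than Stat3 was, and treated replicate 1 lay within the Control range on this ratio as well.

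Of the STAT and Janus kinase genes outside the list, Stat5a and Tyk2 passed in EAE with small differences, Stat5a at log2 0.48 (SE 0.145, adjusted p = 0.0233) and Tyk2, the kinase of type I interferon and interleukin 12 receptors, at 0.37 (SE 0.133, adjusted p = 0.0497). The call of Stat5a was lost without Control replicate 1, Control replicate 3, EAE replicate 1 or EAE replicate 2 (adjusted p from 0.052 to 0.134), and that of Tyk2 without any 1 library other than Control replicate 1 (adjusted p from 0.0562 to 0.176). Stat5b (log2 -0.08, adjusted p = 0.346) and Jak1, the kinase shared by most of these receptors (259 CPM in Control and 246 in EAE, log2 -0.07, adjusted p = 0.466), did not pass. Stat5a and Stat5b are near-identical copies, so the split of reads of 50 bases between them is uncertain. Stat5a lies 1640 bases from Stat3 on chromosome 11.

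Of the other inhibitors of the pathway, 14 genes, 4 were higher in EAE and 3 lower, against 20.2% of all genes called higher and 16.7% lower. Their median log2 difference was 0.0028, against 0.0055 over all genes. Ptpn6, the phosphatase SHP-1 of blood cells, was 6.16-fold higher (5.55 to 34.3 CPM, log2 2.62, SE 0.201, adjusted p = 2.78e-05). Usp18, an interferon-induced protease that blocks the interferon receptor, was 3.72-fold higher (log2 1.89, SE 0.304), and the phosphatase Ptpn1 1.46-fold (log2 0.55, SE 0.0791). Outside the naming rule, and named after their values were seen, Pias4 was higher (log2 0.27) and Pias1, Socs5 and Socs7 were lower (log2 -0.28, -0.18 and -0.20). Without EAE replicate 1 the lower count was 1. Cish, a STAT5 target and the closest relative of Socs2, stood at log2 0.33 (adjusted p = 0.145).

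In treated mice, Ptpn6 (log2 -1.47, SE 0.187, adjusted p = 0.00218) and Ptpn1 (log2 -0.35, SE 0.0787, adjusted p = 0.0233) were lower than in EAE, 2 of 14 against 4.81% of all genes called lower. The count of 2 was 1 without treated replicate 1, treated replicate 2 or any 1 of the EAE libraries. Against Control, where 9.96% of all genes were called higher and 9.82% lower, Ptpn6 and Usp18 were higher (log2 1.16 and 1.28). Socs4, with Pias1 and Socs5, was lower (log2 -0.52, -0.27 and -0.19). The 2 higher became 1 without Control replicate 1, treated replicate 2 or treated replicate 3, and the 3 lower became 1 without treated replicate 2 and 0 without treated replicate 3.

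Receptors upstream of these proteins were mostly higher in EAE, where 20.2% of all tested genes were called higher. In treated mice against EAE, 4.81% of all tested genes were called lower. Of 9 receptors of the gp130 family, 6 were higher, among them Csf3r, the receptor of granulocyte colony-stimulating factor (4.21-fold, 8.55 to 36.0 CPM, adjusted p = 0.000108), Osmr, the oncostatin M receptor (2.88-fold, adjusted p = 0.00048), and Il6ra (1.97-fold, adjusted p = 0.000537). The shared chain gp130 itself, Il6st, was 1.25-fold higher (log2 0.32, SE 0.0804, adjusted p = 0.00956). In treated mice Il6ra, Osmr and Csf3r were lower than in EAE (log2 -0.89, -1.124 and -1.02), a count of 3 that was 1 without EAE replicate 2 or treated replicate 2.

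The list of the common gamma chain, which signals through Jak3, and of related receptors such as Il13ra1 had 7 of 8 tested genes higher in EAE. The chain itself, Il2rg, was 8.54-fold higher (log2 3.10, SE 0.352, adjusted p = 0.000111), with 1.71, 1.30 and 1.02 CPM in Control and 12.7, 11.7 and 10.01 CPM in EAE. Il4ra, the interleukin 4 receptor chain that recruits STAT6, held 11.4, 10.9 and 9.21 CPM in Control and 23.9, 23.3 and 20.4 CPM in EAE. It was 2.15-fold higher (log2 1.102, SE 0.104, adjusted p = 3.96e-05), close to the 2.26-fold of Stat6. Il21r was 4.54-fold higher (log2 2.18, SE 0.228).

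In treated mice Il4ra held 12.4, 14.2 and 14.4 CPM and was lower than in EAE (log2 -0.72, SE 0.102, adjusted p = 0.00289), as were Il2rg (log2 -1.66) and Il13ra1 (log2 -0.86). With Il21r and Il7r, named after their values were seen, that made 5 of 8 lower, and 3 without EAE replicate 1 or EAE replicate 2. Against Control, where 9.96% of all genes were called higher, 4 of 8 were higher in treated mice, with Il21r (log2 1.117) and Il4ra (log2 0.38) among them. That count was 1 without Control replicate 2 or treated replicate 3 and 0 without treated replicate 2.

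Receptors for interferons and interleukin 10 were higher in EAE in 5 of 6 cases. Ifngr1, the ligand-binding chain for interferon gamma, was 1.98-fold higher (log2 0.99, SE 0.109), Il10rb 2.03-fold and Il10ra 3.28-fold. Ifnar1, a chain of the type I interferon receptor, stood at log2 0.05 (adjusted p = 0.583). In treated mice 4 of the 6 were lower than in EAE, with Ifngr1 (log2 -0.68), Il10rb (log2 -0.78) and Ifngr2 (log2 -0.27) named by rule and Il10ra after its values were seen. The count was 2 without treated replicate 2 or any 1 of the EAE libraries.

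Of the interleukin 12 and 23 receptors, Il12rb1 was 1.99-fold higher in EAE (log2 0.99, SE 0.190, adjusted p = 0.00213), the other tested chain, Il12rb2, stood at log2 -0.07 (adjusted p = 0.705), and Il12rb1 stood at log2 -0.51 in treated mice against EAE (adjusted p = 0.164) and 0.48 against Control (adjusted p = 0.106). Among receptors with the common beta chain or with homodimers, whose kinase is Jak2, 4 of 7 tested genes were higher in EAE and 1, the prolactin receptor Prlr, was lower (log2 -0.69). Csf2rb and Csf2rb2 were higher 10.8-fold and 11.5-fold. These 2 beta chains are near-identical copies, so their split is uncertain. Both were lower in treated mice than in EAE (log2 -1.72 and -1.52), a count of 2 that was 4 without Control replicate 3 and 1 without EAE replicate 2 or treated replicate 2.

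Treated mice were compared with Control over the same receptor lists, where 9.96% of all genes were called higher and 9.82% were called lower. In either direction it was 19.8%. Of the 9 tested genes of the gp130 family, Csf3r was higher (log2 1.06, adjusted p = 0.0134), a count of 1 that was 4 without treated replicate 1 and 0 without Control replicate 2, treated replicate 2 or treated replicate 3. The leptin receptor Lepr was lower (log2 -0.62, adjusted p = 0.00902), except without treated replicate 2. Of the 6 tested interferon and interleukin 10 receptors, Il10ra was higher (log2 0.86, adjusted p = 0.0249), and the count of 1 was 4 without treated replicate 1 and 0 without Control replicate 1, Control replicate 2, treated replicate 2 or treated replicate 3. Of the 7 tested genes of the beta chain list 3 were higher, with Csf2rb2 at log2 2.01, Csf2rb at 1.71 and Csf2ra, named after its values were seen, at 0.39, a count that was 1 without treated replicate 2 or 3. Prlr was lower (log2 -0.46, adjusted p = 0.0245), a call lost without Control replicate 2, treated replicate 2 or treated replicate 3.

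Cytokine transcripts themselves were scarce in whole cord, and only 9 of the 22 ligands listed had enough counts to be tested. Ifng held 0 counts in every Control library and 0.181, 0.0961 and 0.0936 CPM in EAE, and Il6 lay between 0.0312 and 0.181 CPM in all libraries, so neither was tested. Of the 9, 5 were higher in EAE and 1 lower, against 20.2% of all genes called higher and 16.7% lower. Il15 was 1.76-fold higher (log2 0.82, SE 0.176, adjusted p = 0.00422) and Clcf1, a ligand of the ciliary neurotrophic factor receptor, 1.64-fold (log2 0.71, SE 0.221, adjusted p = 0.026). Osm, Ebi3 and Il23a were also higher and Il11 was lower (log2 3.65, 1.51, 0.94 and -0.76), named after their values were seen. The 5 became 3 without Control replicate 2, EAE replicate 2 or EAE replicate 3, and the 1 became 0 without Control replicate 3, EAE replicate 2, EAE replicate 3 or treated replicate 2.

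Osm encodes oncostatin M, a cytokine of myeloid cells that acts through Osmr, gp130 and STAT3. It held 0.0657, 0.0949 and 0.131 CPM in Control, 1.30, 1.47 and 1.03 CPM in EAE, and 0.0960, 0.162 and 0.705 CPM in treated mice. Where 4.81% of all genes were called lower in treated mice than in EAE, Osm was the only ligand so called (log2 -1.97, SE 0.483, adjusted p = 0.0379). That call was lost when any 1 library was left out except Control replicate 3 and treated replicate 3.

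Partners and targets of the STAT proteins were the list with the most tested genes. Of these 17, 12 were higher in EAE, against 20.2% of all genes called higher. Timp1, an inhibitor of matrix proteases known to respond to oncostatin M, was 25.6-fold higher (0.837 to 21.4 CPM, log2 4.68, SE 0.541, adjusted p = 0.000125). Junb, an early target of STAT3 and a subunit of AP-1, was 2.42-fold higher (log2 1.28, SE 0.0910, adjusted p = 2.78e-05) and the transcription factor Cebpb 2.49-fold (log2 1.32, SE 0.137). Pim1, a kinase gene widely used as a STAT target, stood at log2 0.05 (adjusted p = 0.854).

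In treated mice 8 of the 17 were lower than in EAE, against 4.81% of all genes called lower. Igf1 was 2.49-fold lower (17.4 to 6.97 CPM, log2 -1.32, SE 0.126, adjusted p = 0.000877), Junb 1.77-fold (log2 -0.82, SE 0.0888) and Cebpb 1.73-fold (log2 -0.79, SE 0.132). The count was 5 without Control replicate 2 or EAE replicate 3, 4 without EAE replicate 2 and 3 without treated replicate 2. Against Control, 8 were higher, where 9.96% of all genes were called higher. Among the 8 were Junb (log2 0.45), Cebpd (log2 1.115) and Cebpb (log2 0.53). That count was less firm: it was 4, 3 and 2 without Control replicates 3, 1 and 2 in turn, and 0 without treated replicate 2 or 3.

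**Figure D4:**
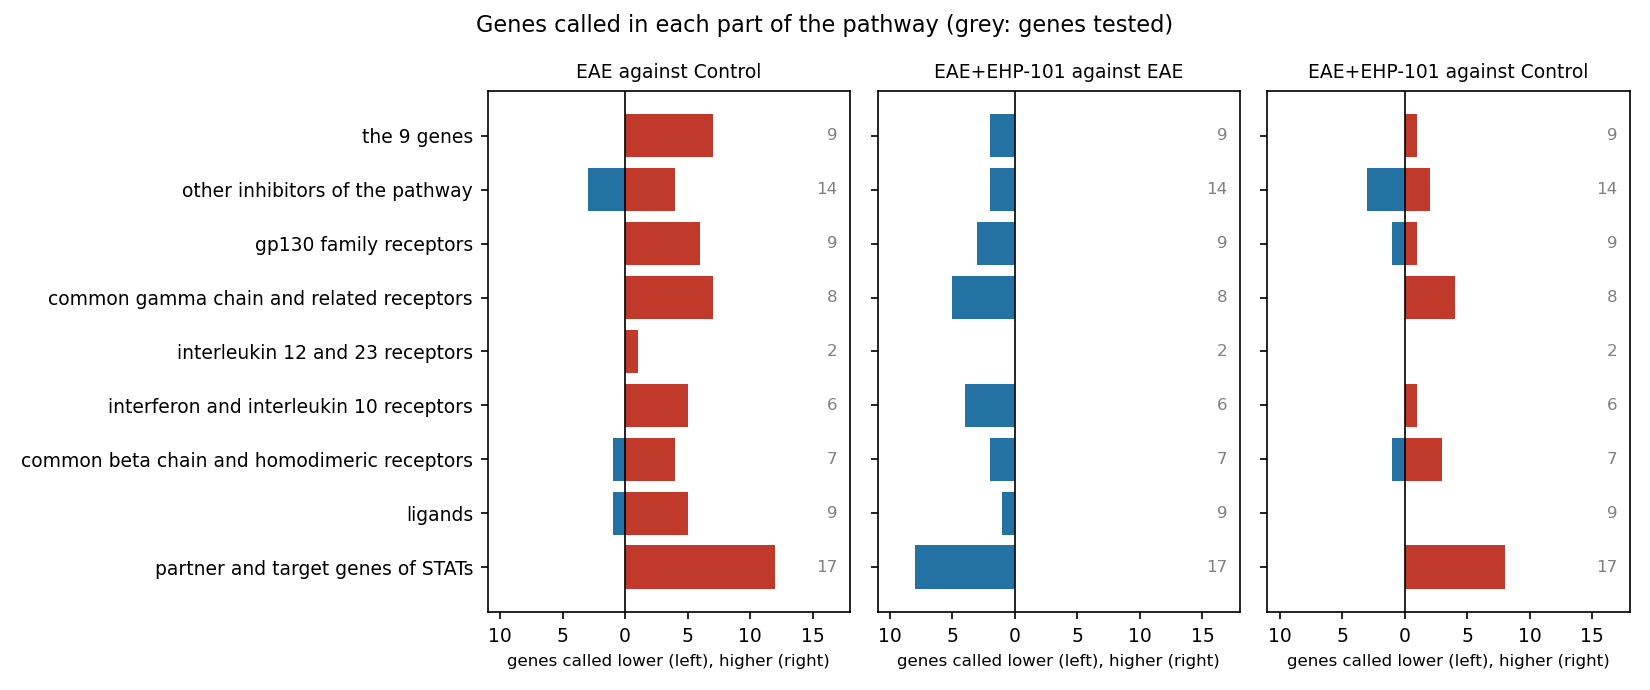
Number of genes called higher (red, to the right) or lower (blue, to the left) among the 9 genes and in 8 lists of the pathway, for the 3 comparisons, with the number of tested genes in grey. Red bars prevail in EAE against Control (7 of 9 for the 9 genes, 12 of 17 for partners and targets), and every bar of treated mice against EAE points to lower values.

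T cell, monocyte and macrophage, and microglia markers were also higher in EAE. Of all tested genes, 20.2% were called higher in EAE. All 10 T cell markers were higher in EAE, and their summed level ran from 1.14 to 1.51 CPM in Control, from 17.8 to 21.3 in EAE and from 2.30 to 10.5 in treated mice. Of 8 monocyte and macrophage markers 6 were higher in EAE, with sums of 10.8 to 17.57, 403 to 562 and 31.2 to 74.3 CPM. Most of that sum was Lyz2, the lysozyme of myeloid cells, named after its values were seen, and the other 7 markers summed to 2.63 to 8.21 CPM in Control, 16.2 to 26.3 in EAE and 6.99 to 10.8 in treated mice. Ly6c2, a marker of inflammatory monocytes named in the same way, was not called and averaged 1.73 CPM in Control, with replicate 1 at 4.73, and 0.599 CPM in EAE. Microglia markers, 6 of 8 higher, summed to 316 to 401, 692 to 942 and 379 to 522 CPM. In treated mice 4 T cell, 4 monocyte and macrophage and 5 microglia markers were lower than in EAE, against 4.81% of all genes. The T cell count was 1 without EAE replicate 1 or treated replicate 2, 2 without EAE replicate 2 or 3 and 7 without treated replicate 3, and the microglia count was 3 without EAE replicate 2.

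Treated replicate 1, lowest of its group for Stat4, Stat6 and Socs3, was also lowest for the summed T cell, monocyte and macrophage and microglia markers. For monocytes and macrophages this rested on Lyz2, at 22.5, 45.1 and 63.4 CPM in treated replicates 1, 2 and 3. Without Lyz2, treated replicate 2 had the lowest sum. Treated replicate 1 was highest for neutrophil markers, at a summed 63.2 CPM against 21.3 CPM in the lowest treated library, 8.55 to 23.1 CPM in EAE and 4.56 to 14.3 CPM in Control. Of 5 tested neutrophil markers 4 were higher in treated mice than in Control, against 9.96% of all genes. That count was 1 without Control replicate 1 and 0 without Control replicate 2. Of 8 astrocyte markers 3 were higher in EAE (5 without Control replicate 3), against 20.2% of all genes. The 8 summed to 7205 to 9097 CPM in Control and 9242 to 11360 in EAE. The 3 were Gfap (mean 2585 CPM in Control and 4475 in EAE), Aqp4 (841 and 1208) and Aldh1l1, named after their values were seen. Slc1a2 (2754 and 2519), Gja1 (311 and 267) and Gjb6 (104 and 97.3) had lower means in EAE and S100b and Slc1a3 higher ones, none of them called. Endothelial markers, 7 of 8 lower, against 16.7% of all genes, summed to 209 to 313 CPM in Control and 116 to 171 in EAE. Oligodendrocyte markers summed to at least 28460 CPM and neuronal markers to at least 7505 CPM in every library, as fits the labelled tissue. No marker of any list was at 0 in all libraries. The part of these cell populations in the differences of the 9 genes was not tested.

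**Figure D5:**
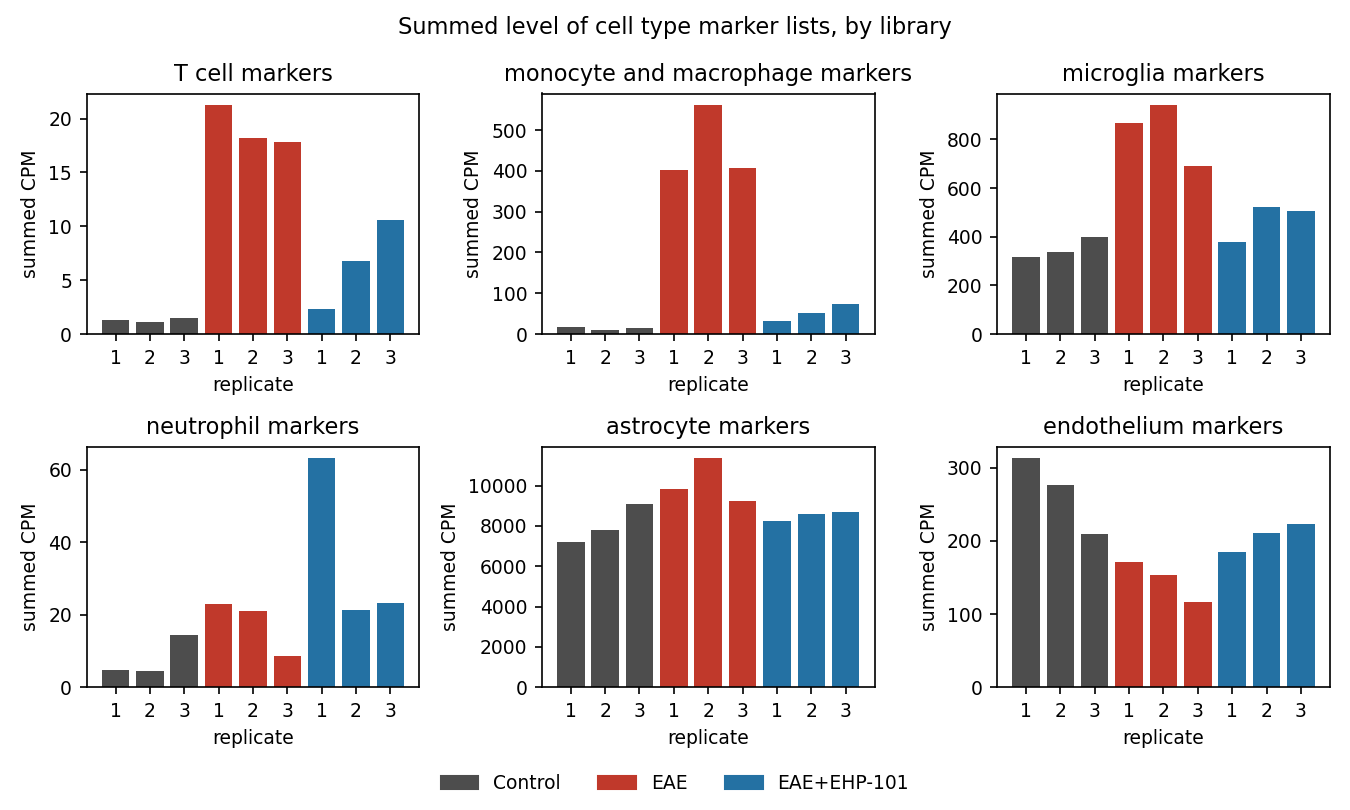
Summed level (CPM, bars from 0) of 6 lists of cell type markers in each library, by group and replicate number. T cell, monocyte and macrophage and microglia sums are highest in the 3 EAE libraries and lowest among treated mice in replicate 1, whose neutrophil sum (63.2 CPM) is the highest of all. The monocyte and macrophage sum is mostly Lyz2, and without it the lowest treated sum is that of replicate 2.

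For each member the genes with the most similar course were sought among 13082 genes, by the root mean square difference of log2 CPM over the 9 libraries, each gene taken relative to its own Control mean. Stat6 was nearest to Cmklr1, the chemerin receptor of myeloid cells (0.0923), and to Igfbp7 (0.0926). Cmklr1 was higher in EAE and lower in treated mice by almost the same log2 values as Stat6 (1.09 and -0.85). Socs3 was nearest to Wdfy4, a gene needed by dendritic cells for cross-presentation (0.149), and to Lrmp (0.159), each at log2 1.97 in EAE. Stat4 was nearest to H2-D1, a class I histocompatibility gene with near-identical relatives (0.165), and to Ptpn18 (0.205).

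Socs1 had Itgae, the integrin chain CD103 (0.216), nearest to it, and Jak3 had Adam8 (0.143) and Trim47 (0.153). For Socs2 they were Thnsl2 (0.102) and Tpm3 (0.104). The members that moved little had the closest neighbours: Stat3 had Csad (0.0331) and Tbc1d22a (0.0368), Jak2 had Asb7 (0.0348) and Psmd11 (0.0375), and Stat2 had Mfsd10 (0.0449) and Fbrs (0.0641). These distances describe the 9 libraries and were not tested.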

How the data were processed

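Poly-A RNA from spinal cord of 9 mice was read in stranded libraries with single reads of 50 bp, per the labels' protocols. The deposited values are raw read counts per gene under Entrez identifiers, with exon coordinates and lengths, per the file headers. Per the submitters' processing notes, the authors worked on build mm10 with featureCounts 1.6.1, HISAT2 2.1.0, DESeq2 1.20.0 and Trimmomatic 0.36. The strand setting of the counting and the treatment of reads that map to several places are not stated in these sources. Symbols came from a RefSeq table of GRCm38.p6 (25275 of 27179 identifiers).

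In R 4.3.3 with edgeR 4.0.16, genes were kept by filterByExpr (16749), scaled by TMM, and fitted with a quasi-likelihood model of 1 mean per group over all 9 libraries. P-values were adjusted by Benjamini-Hochberg over all tested genes. SE is the absolute log2 fold change over the root of F, and 95% intervals use 11.28 degrees of freedom. The p-values measure the spread between the mice of this experiment. CPM and RPKM use the scaled library sizes and the table's gene lengths. Alternatives were other scalings, no filter, removal of the length trend, the replicate number as a block, only the 2 groups compared, DESeq2 1.42.0, and each library left out.

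The members and the gene lists were chosen with earlier results of these data known. Named by rule were the 9 members, their overlapping genes, the other STAT and Janus kinase genes, per list and comparison up to 3 called genes of lowest p whose mean log2 CPM reached 0 and whose groups did not overlap, and the 2 genes nearest each member (mean log2 CPM from 1 up). Marker lists were summed. Other names were added after their values were seen. Some results that this rule selects are not reported here.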

Additional observations from a re-analysis of the deposited data

How the results depend on the processing

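Of 458 values of single members under alternative settings, 426 kept their direction and their side of the threshold, 10 passed it newly, 19 no longer passed and 3 changed sign. The EAE calls of Socs3, Stat6, Stat4, Stat3 and Socs1 and the treated against EAE calls of Socs3 and Stat6 held in all 17 alternatives. The 3 sign changes were those of values near 0: Jak2 in EAE against Control at 0.10 with the length trend removed, and, without treated replicate 3, Stat2 in treated mice against EAE at -0.0282 (range with 1 library left out -0.0282 to 0.125) and Socs2 in treated mice against Control at -0.028 (range -0.028 to 0.178); the cause was not tested. With 1 library left out, genes called ran from 4378 to 7095 for EAE against Control, from 370 to 1170 for treated mice against EAE and from 629 to 3739 for treated mice against Control, and members called from 5 to 7, from 2 to 2 and from 0 to 4. For treated mice against Control, the genes called were 1553 with the length trend removed (main 3314), and the members called were 2 with library totals, 3 with the length trend removed, 4 by the DESeq2 Wald test and 0 with only the 2 groups compared, where Stat4 fell to the filter and 8 members were tested. Library totals moved the split of that comparison to 2176 higher and 1319 lower (main 1669 and 1645). Deviations of same-numbered libraries correlated from -0.187 to 0.123, and those of differently numbered libraries from -0.175 to 0.246. These values give no sign that the numbers pair the mice, but with 3 mice per group they cannot exclude it. With the replicate number as a block, genes called were 5345, 722 and 2272 and members called 6, 2 and 1 in the same order. Socs2 in EAE against Control was then at an adjusted p of 0.0725. Stat4 and Socs1, with 2 to 51 counts per library, are the members where depth limits precision.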
